A study of Homo sapiens with 24 samples.

Results

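The genes of the major histocompatibility complex (MHC) class II pathway examined here were HLA-DRA, HLA-DRB1, HLA-DPA1, HLA-DPB1, HLA-DMA, HLA-DMB and HLA-DOA, the invariant chain gene CD74 and the class II transactivator gene CIITA. They are 9 of the 57820 genes counted in the RNA-seq libraries, and each symbol matched 1 row of every count table. The 9 genes were selected on measured values, because the response of class II genes to treatment in these libraries was known when they were listed. Their 4 treatment responses are therefore given as a description, without p-values, and tests are kept for the contrasts between genotypes, for the genotype by treatment interaction and for the difference between the treatment responses of the 2 sets of cells.

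The libraries were made from WT and ID3-KO cells of the human osteosarcoma line U2OS. ID3, inhibitor of DNA-binding 3, binds basic helix-loop-helix transcription factors and keeps them from DNA. AID-DIvA cells are U2OS cells that carry the restriction enzyme AsiSI, which can be induced to cut the genome. The 4 AID-DIvA groups were WT untreated, WT treated with mocetinostat and recovered, ID3-KO untreated, and ID3-KO treated and recovered. Mocetinostat is an inhibitor of class I histone deacetylases, given for 24 h and followed in these groups by 24 h in medium without the drug. The 4 groups labelled U2OS were WT untreated, WT treated, ID3-KO untreated and ID3-KO treated, collected without recovery as far as the series description and the methods allow it to be inferred. Every group had 3 biological replicates, 24 libraries in all. The dose of mocetinostat for these libraries and whether the ID3-KO cells are 1 clone are not given in the sources used here. The cell label and the stage (before or after recovery) coincide, so a difference between the 2 sets cannot be assigned to either, and the library names of the U2OS set themselves contain "DivA". In the AID-DIvA set (12 libraries) titles and treatment labels name opposite treatments. The titles, which the library names repeat, were followed, and with the treatment labels the sign of every response in the AID-DIvA cells would turn.

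Total counts lay between 37878751 and 76906266 per AID-DIvA library and between 46285533 and 70692114 per U2OS library. All levels below are CPM, the count of a gene per 1000000 counts of its library, with library totals scaled by TMM factors over the 24 libraries. WT U2OS untreated replicate 1 stood apart from its group, with a chi-square per gene of 102.9 and 91.1 against the other replicates, where no other pair exceeded 27.3. ID3 itself, the targeted gene, was lower in ID3-KO than in WT libraries in each of the 4 matched pairs of groups, from 32.6–38.8 against 48.7–52.3 CPM in untreated AID-DIvA cells to 30.3–40.6 against 77.9–88.9 CPM in treated U2OS cells, and its transcript remained detectable in every ID3-KO library. The bone-lineage markers SPARC (878–1530 CPM), COL1A1 (830–2500 CPM), VIM (431–959 CPM) and RUNX2 (11.8–47.5 CPM) were present in every library, whereas COL1A2 (0.0513–1.37 CPM) and ALPL (0.616–7.01 CPM) were low.

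MHC class II molecules are pairs of an alpha and a beta chain, named HLA-DR, HLA-DP and HLA-DQ, that present peptides from the endosomal route to CD4+ T cells. The invariant chain CD74 occupies the peptide groove of new class II molecules and guides them to endosomes, HLA-DM removes its last fragment so that peptides can bind, and HLA-DO restrains HLA-DM. B cells, dendritic cells and macrophages make these proteins constitutively, and most other cells make them only after interferon gamma. CIITA does not bind DNA itself. It is recruited to class II promoters by RFX, CREB and NF-Y, which assemble on a conserved set of elements called the S, X and Y boxes.

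Promoter sequences are shown because class II genes and CD74 are known as targets of that assembly, which reads these letters. The table of RefSeq promoters used here (GRCh38.p14) holds 7 of the 9 members, not HLA-DRA and CIITA. The 150 bases before the start of transcription are printed 5′ to 3′ on the strand of the gene for the beta chain gene HLA-DRB1 (chr6:32589849-32589998, minus strand), both HLA-DM chains, HLA-DMA (chr6:32953098-32953247, minus strand) and HLA-DMB (chr6:32941029-32941178, minus strand), and CD74 (chr5:150412911-150413060, minus strand). Capitals mark ACTGATGATG, the longest run of letters that HLA-DRB1, HLA-DMA and HLA-DMB share on the strand of the gene, and GATTGG, the letters of the Y box core. In HLA-DMB these letters were matched only on the opposite strand, as CCAATC.
HLA-DRB1: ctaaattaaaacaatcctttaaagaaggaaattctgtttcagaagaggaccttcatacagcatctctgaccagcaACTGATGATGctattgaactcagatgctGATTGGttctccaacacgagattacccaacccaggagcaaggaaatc
HLA-DMA: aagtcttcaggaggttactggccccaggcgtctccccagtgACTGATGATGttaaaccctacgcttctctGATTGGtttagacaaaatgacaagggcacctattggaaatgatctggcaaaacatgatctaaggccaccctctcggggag
HLA-DMB: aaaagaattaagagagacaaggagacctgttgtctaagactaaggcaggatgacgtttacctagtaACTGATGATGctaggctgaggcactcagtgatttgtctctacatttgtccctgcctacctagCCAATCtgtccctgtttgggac
CD74: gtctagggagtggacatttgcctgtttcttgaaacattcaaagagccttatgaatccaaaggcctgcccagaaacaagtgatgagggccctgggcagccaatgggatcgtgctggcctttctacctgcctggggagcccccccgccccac
Both strands were searched, and the motifs and the 3 genes were chosen after the sequences were read. ACTGATGATG lies 75 to 66 bases before the start of HLA-DRB1, 84 to 75 before that of HLA-DMB and 109 to 100 before that of HLA-DMA, and was found in 19 of 35116 RefSeq promoters of the same length, 0.0541%. GATTGG lies 47 to 42 bases before the start of HLA-DRB1 and 80 to 75 before that of HLA-DMA. In HLA-DMB the opposite-strand match lies 22 to 17 bases before the start, farther from ACTGATGATG. Whether that match serves as a Y box was not tested. GATTGG was found in 5 members, these 3 and HLA-DOA and HLA-DPB1, and in 10.7% of all promoters. Both together were found in 4 promoters, 0.0114%, and the matches did not overlap. Neither was found in the windows of CD74 and HLA-DPA1, which says only that these letters are not there. The CD74 window holds ccaatg, which differs from CCAATC in the last letter.

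HLA-DRA (ENSG00000204287.9, chromosome 6, 32407619 to 32412823, plus strand; hg19, as for all gene positions below), the single alpha chain of HLA-DR, was nearly silent without treatment. It was measured at 0.082, 0.035 and 0.095 CPM in the 3 untreated WT AID-DIvA libraries and at 3.90, 3.99 and 4.2 CPM after treatment and recovery. In ID3-KO AID-DIvA cells it was measured at 0.017, 0.111 and 0.094 CPM untreated and at 4.30, 4.05 and 3.53 CPM after treatment and recovery. The treated libraries of both genotypes lay above all untreated ones and overlapped each other. In U2OS cells the values were 0.076, 0.219 and 0.113 CPM in untreated WT, 10, 10.3 and 9.54 CPM in treated WT, 0.019, 0.033 and 0.106 CPM in untreated ID3-KO and 6.73, 7.55 and 8.06 CPM in treated ID3-KO libraries. The untreated libraries rested on 1 to 16 counts each and the treated ones on 151 to 723. In order of the group means, treated WT U2OS cells (9.95 ± 0.380 CPM, SD, n = 3) came first, followed by treated ID3-KO U2OS cells (7.45 ± 0.669 CPM) and by recovered WT (4.03 ± 0.150 CPM) and ID3-KO AID-DIvA cells (3.96 ± 0.393 CPM), which overlapped. The 4 untreated groups followed and overlapped from neighbour to neighbour. The log2 fold changes between treated and untreated cells were 5.80 (standard error, SE, 0.217) in WT and 5.66 (SE 0.262) in ID3-KO cells after recovery, and 6.13 (SE 0.242) and 7.07 (SE 0.230) before it.

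HLA-DRB1 (ENSG00000196126.6, chromosome 6, 32546546 to 32557625, minus strand), the beta chain paired with HLA-DRA, stayed between 0.019 and 0.193 CPM in all untreated libraries. After treatment and recovery it was measured at 0.625, 1.03 and 0.832 CPM in WT and at 1.94, 1.75 and 1.45 CPM in ID3-KO AID-DIvA cells. Before recovery the values were 2.08, 1.78 and 1.94 CPM in WT and 2.25, 1.98 and 2.25 CPM in ID3-KO U2OS cells. The WT AID-DIvA libraries were thus the lowest of the treated ones, with no overlap with the ID3-KO libraries. The log2 fold changes were 3.51 (SE 0.350) and 4.09 (SE 0.240) after recovery and 4.36 (SE 0.381) and 4.09 (SE 0.252) before it, in WT and ID3-KO cells. The gene is highly polymorphic and nearly identical over long stretches to HLA-DRB5 and HLA-DRB6, so its counts depend on how well the reads of these cells fit the reference allele.

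The HLA-DP chains changed less than the HLA-DR chains. HLA-DPA1 (ENSG00000231389.3, chromosome 6, 33032346 to 33048552, minus strand), the alpha chain, was measured at 0.264 to 0.872 CPM in untreated libraries, 1.74 to 2.12 CPM in recovered and 2.70 to 4.22 CPM in treated U2OS libraries. HLA-DPB1 (ENSG00000223865.6, chromosome 6, 33043703 to 33054978, plus strand), the beta chain, was measured at 0.052 to 0.356 CPM untreated, at 0.777, 0.752 and 0.684 CPM in recovered WT, at 0.996, 1.32 and 1.73 CPM in recovered ID3-KO and at 2.31 to 3.15 CPM in treated U2OS libraries. For both genes the treated libraries lay above the untreated ones of the same cells, and the treated U2OS libraries above the recovered AID-DIvA ones. The log2 fold changes of HLA-DPA1 were 2.19 (SE 0.176) and 2.61 (SE 0.170) after recovery and 2.51 (SE 0.177) and 3.17 (SE 0.206) before it, in WT and ID3-KO cells, and those of HLA-DPB1 were 2.64 (SE 0.314), 3.14 (SE 0.318), 3.33 (SE 0.219) and 3.94 (SE 0.242). The annotated spans of the 2 genes overlap on opposite strands.

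HLA-DMB (ENSG00000242574.4, chromosome 6, 32902406 to 32908847, minus strand), the beta chain of the peptide exchange factor HLA-DM, differed most between the 2 sets of cells on either-strand counts. It was measured at 0.411, 0.311 and 0.350 CPM in untreated and 0.777, 1.44 and 1.28 CPM in recovered WT AID-DIvA libraries, and at 0.274, 0.306 and 0.339 CPM against 1.37, 1.20 and 1.38 CPM in ID3-KO ones. In U2OS cells it went from 0.413, 0.424 and 0.732 CPM to 9.16, 9.47 and 9.89 CPM in WT, and from 0.193, 0.301 and 0.284 CPM to 8.35, 9.70 and 9.07 CPM in ID3-KO cells. The highest untreated value belonged to replicate 3, not to the replicate of that group that stood apart. The treated U2OS libraries of both genotypes overlapped each other and lay above every other library. The log2 fold changes were 1.72 (SE 0.261) and 2.09 (SE 0.181) after recovery and 4.21 (SE 0.199) and 5.10 (SE 0.153) before it.

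HLA-DMA (ENSG00000204257.10, chromosome 6, 32916390 to 32936871, minus strand), the alpha chain of the same heterodimer, did not follow HLA-DMB in this. It was measured at 0.596, 0.415 and 0.477 CPM in untreated and 1.82, 2.28 and 2.61 CPM in recovered WT AID-DIvA libraries, and at 0.410, 0.333 and 0.546 CPM against 2.59, 1.84 and 2.06 CPM in ID3-KO ones. In U2OS cells the values were 0.903, 0.862 and 0.732 CPM against 5.17, 4.52 and 5.31 CPM in WT and 0.618, 0.552 and 0.691 CPM against 3.29, 2.68 and 3.51 CPM in ID3-KO cells. All 4 log2 fold changes lay close together, at 2.20 (SE 0.196), 2.33 (SE 0.208), 2.58 (SE 0.144) and 2.36 (SE 0.168) in WT and ID3-KO cells after recovery and WT and ID3-KO cells before it. HLA-DMA overlaps BRD2, a gene on the opposite strand, and counts from its own strand alone gave 2.18, 2.34, 2.60 and 2.36.

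HLA-DOA (ENSG00000204252.8, chromosome 6, 32971955 to 32977389, minus strand), the alpha chain of the HLA-DM inhibitor HLA-DO, rested on 2 to 9 counts per untreated library, 7 to 24 per recovered and 45 to 83 per treated U2OS library. In recovered AID-DIvA cells it was measured at 0.152, 0.160 and 0.259 CPM in WT and 0.199, 0.334 and 0.526 CPM in ID3-KO libraries, and in treated U2OS cells at 1.26, 1.13 and 1.07 CPM and at 1.23, 0.825 and 1.08 CPM. The gene was too low to be tested for the response of WT cells after recovery. Elsewhere the log2 fold changes were 1.57 (SE 0.441) in ID3-KO cells after recovery, 3.85 (SE 0.280) in WT and 2.86 (SE 0.293) in ID3-KO cells before it.

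Per kilobase of annotated exons, HLA-DRA had the highest mean level of the members in every treated group, 7.77 CPM per kb in WT and 5.82 in ID3-KO U2OS cells and 3.15 and 3.09 in recovered WT and ID3-KO AID-DIvA cells. HLA-DMB was second in treated U2OS cells (2.04 CPM per kb in WT and 1.94 in ID3-KO) but, at 0.250 and 0.283 CPM per kb, was below HLA-DMA (0.882 and 0.853) in recovered WT and ID3-KO AID-DIvA cells.

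**Figure D1:**
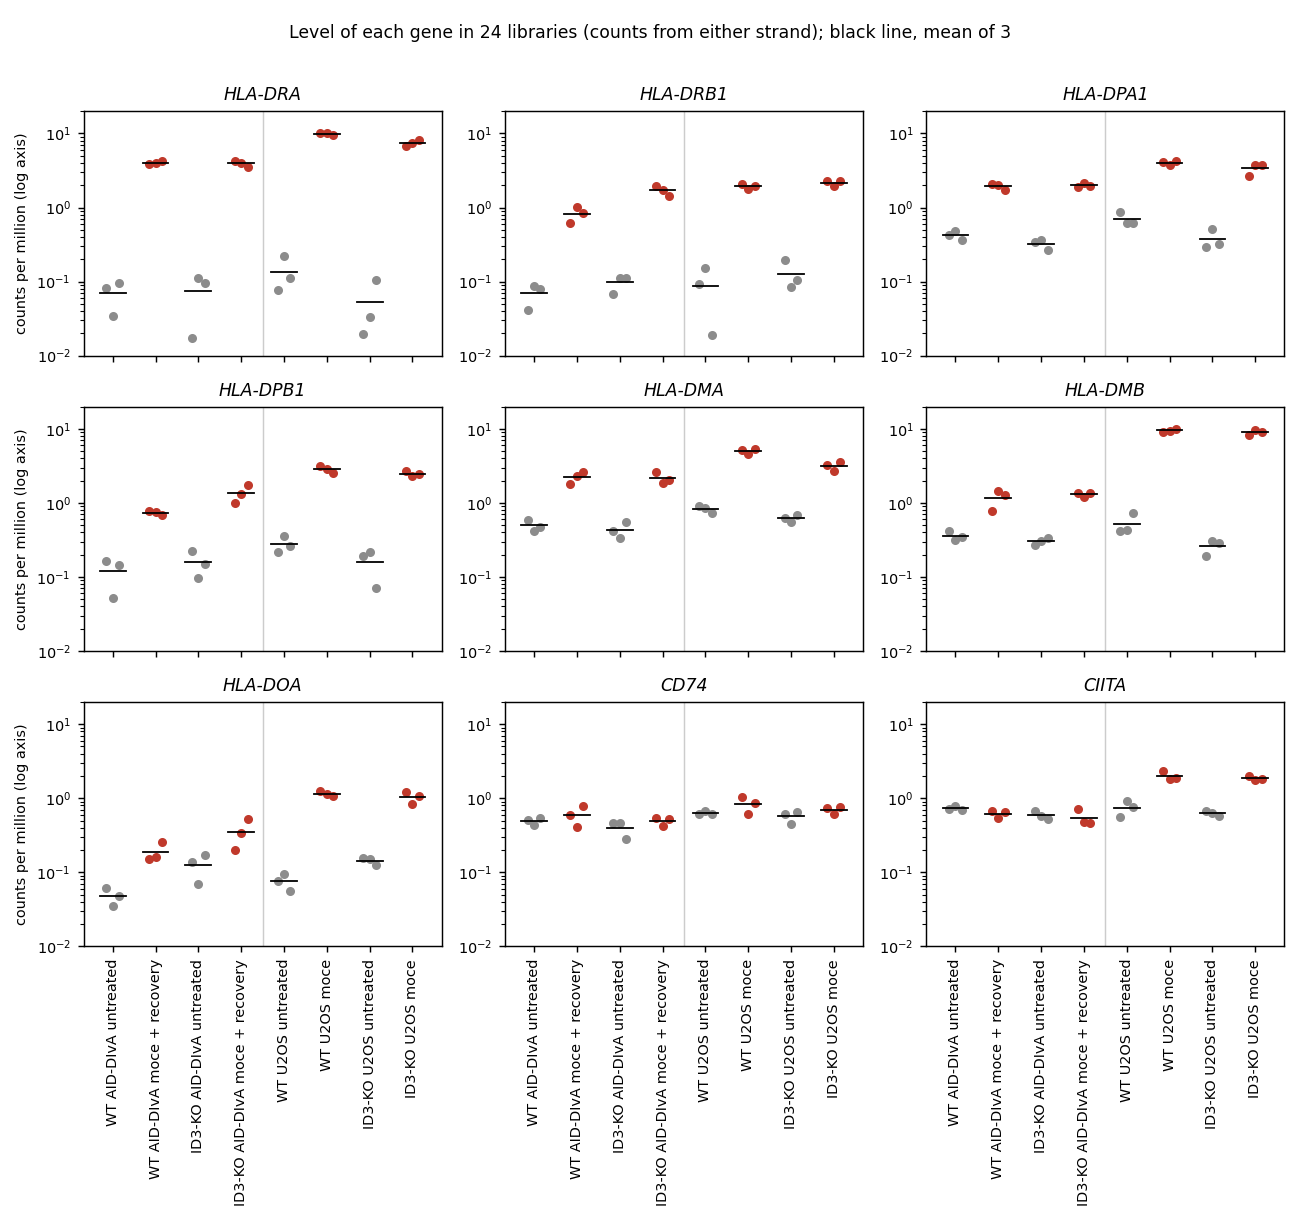
Level of each of the 9 genes in the 24 libraries, in CPM from either strand on a log axis, with 1 point per library, the black line at the mean of 3 and the vertical line between AID-DIvA and U2OS groups. The treated libraries of 7 class II genes sit above the untreated ones of the same cells, with HLA-DMB near 9 CPM in treated U2OS cells and near 1.2 CPM in recovered AID-DIvA cells, whereas CD74 stays between 0.283 and 1.05 CPM throughout.

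CD74 (ENSG00000019582.10, chromosome 5, 149781200 to 149792492, minus strand) did not share this pattern. It was measured at 0.283 to 1.05 CPM, and treated and untreated libraries overlapped in all 4 responses, with log2 fold changes of 0.31 and 0.26 after recovery and 0.41 and 0.30 before it in WT and ID3-KO cells. Nearly all of these reads lay on the opposite strand of the gene. The own strand gave 0 to 5 counts per library, 29 in the 24 libraries together, and the opposite strand 14 to 69, 824 together, so the own strand held 3.4% of both. None of the other genes examined here overlaps CD74, and the source of the opposite-strand reads was not tested. The transcript of the invariant chain was therefore close to undetected in every group, including those where HLA-DRA reached 10.3 CPM.

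CIITA (ENSG00000179583.13, chromosome 16, 10971055 to 11026079, plus strand) needed the same separation by strand. The deposited either-strand counts gave 0.719, 0.796 and 0.700 CPM in untreated and 0.663, 0.547 and 0.647 CPM in recovered WT AID-DIvA libraries, and 0.667, 0.570 and 0.528 CPM against 0.711, 0.470 and 0.460 CPM in ID3-KO ones. In U2OS cells they gave 0.566, 0.931 and 0.751 CPM against 2.33, 1.84 and 1.86 CPM in WT and 0.676, 0.636 and 0.567 CPM against 2.0, 1.78 and 1.82 CPM in ID3-KO cells. On this scale CIITA was higher only in treated U2OS cells, with log2 fold changes of 1.42 (SE 0.217) in WT and 1.58 (SE 0.175) in ID3-KO cells, against -0.23 (SE 0.190) and -0.15 (SE 0.221) after recovery.

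The opposite strand of CIITA, which overlaps DEXI, gave 389 to 994 counts in every library, so only 3.27% of the strand-resolved counts were on the own strand. The either-strand count is not the sum of the 2 strands. Over all libraries CIITA had 1378 either-strand counts, beside 565 on its own and 16712 on the opposite strand. Those own-strand counts were 2, 3 and 3 in untreated and 17, 5 and 10 in recovered WT AID-DIvA libraries, and 1, 1 and 0 against 5, 9 and 7 in ID3-KO ones. In U2OS cells they were 0, 4 and 1 against 101, 58 and 101 in WT and 3, 0 and 0 against 93, 60 and 81 in ID3-KO cells. The recovered libraries thus all held more own-strand CIITA counts than the untreated ones of their genotype, which the either-strand counts did not show. Summed over the 3 libraries and scaled to library size, the ratio of treated to untreated own-strand counts was 4.5 (95% counting interval 2.03 to 11.3) in WT and 13.1 (3.2 to 115) in ID3-KO cells after recovery, and 51.9 (21.9 to 161) and 72.2 (24.4 to 353) before it. These exact intervals cover counting error only, and rest on 8, 2, 5 and 3 untreated counts. A library with 0 own-strand counts allows up to 3 counts, 0.038 to 0.077 CPM. At mean own-strand levels of 1.30 CPM in WT and 1.26 CPM in ID3-KO treated U2OS cells, against 0.202 and 0.140 CPM in recovered WT and ID3-KO AID-DIvA cells, CIITA remained well under HLA-DRA per kilobase, with 0.108 against 7.77 CPM per kb in treated WT U2OS cells.

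**Figure D2:**
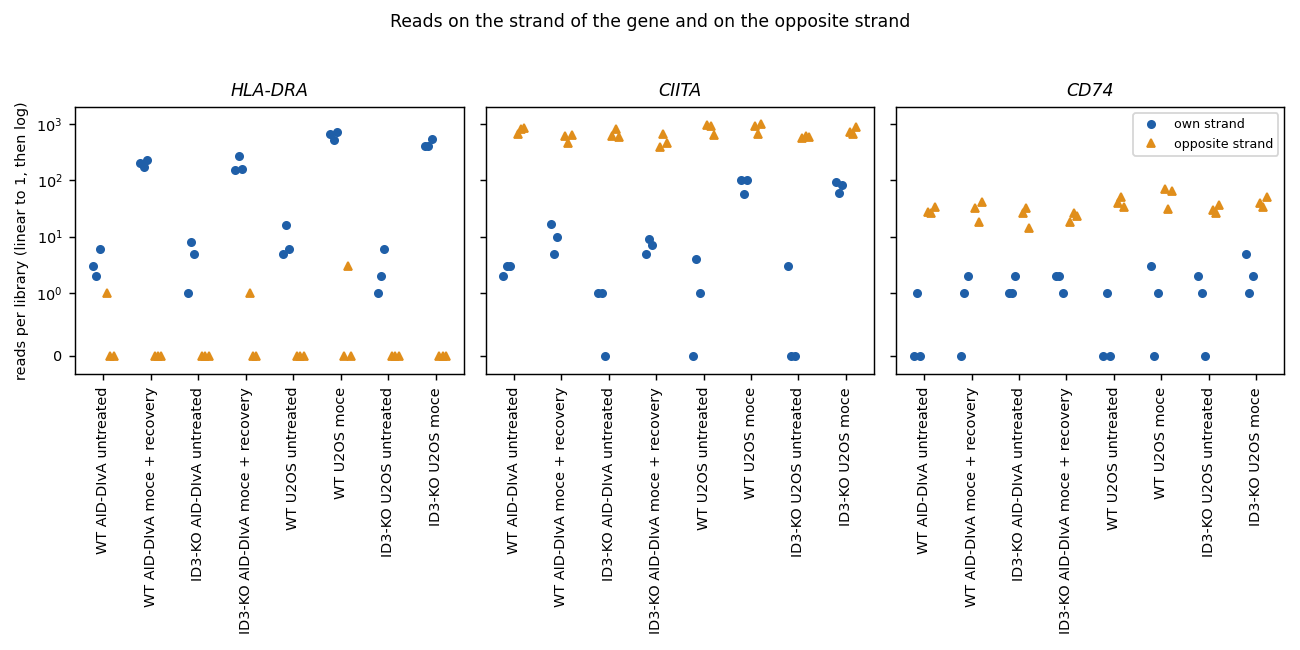
Reads per library on the gene's own strand (circles) and on the opposite strand (triangles) for HLA-DRA, CIITA and CD74 in the 8 groups, on an axis that is linear up to 1 read and logarithmic above. HLA-DRA reads lie on the own strand, CIITA own-strand reads are 58 to 101 in treated U2OS libraries beside 389 to 994 opposite-strand reads in all libraries, and CD74 has at most 5 own-strand reads.

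For the other members the own strand held 99.9% of the strand-resolved counts of HLA-DRA and HLA-DPB1, 100.0% of those of HLA-DMB and HLA-DOA, 98.8% of HLA-DRB1, 82.0% of HLA-DPA1 and 50.1% of HLA-DMA. HLA-DMA had 2614 either-strand counts, beside 2613 on its own and 2604 on the opposite strand, so its either-strand values are close to its own-strand ones. Over all genes the opposite strand came to between 5.45% and 6.45% of the own-strand total. Unless the own strand is named, values below are from counts of either strand, as the deposited totals give them.

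Across all genes, calls were made with edgeR's quasi-likelihood test where the Benjamini-Hochberg adjusted p was below 0.05 and the log2 fold change exceeded 1 in either direction. After recovery 4.86% of the 20289 genes tested in WT cells were called higher and 2.52% lower, and 4.9% and 2.56% of 20362 in ID3-KO cells. Before recovery 13.6% and 5.06% of 21797 genes were called in WT and 14.6% and 5.77% of 21176 in ID3-KO cells. Of the members, 6 of 8 tested were called higher in WT and 7 of 9 in ID3-KO cells after recovery, and 8 of 9 in each genotype before it. None was called lower. Without ID3-KO treated replicate 3 or untreated replicate 2, HLA-DOA (log2 fold changes 1.23 and 1.22) was not called in ID3-KO cells after recovery. CD74 was not called in any response, and CIITA was called on either-strand counts only before recovery. Their median log2 fold changes were 2.20 and 2.33 after recovery and 3.33 and 3.17 before it, where the medians of all genes tested lay between -0.023 and 0.0058. Because the members were chosen for this response, nothing is read from these counts.

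**Figure D3:**
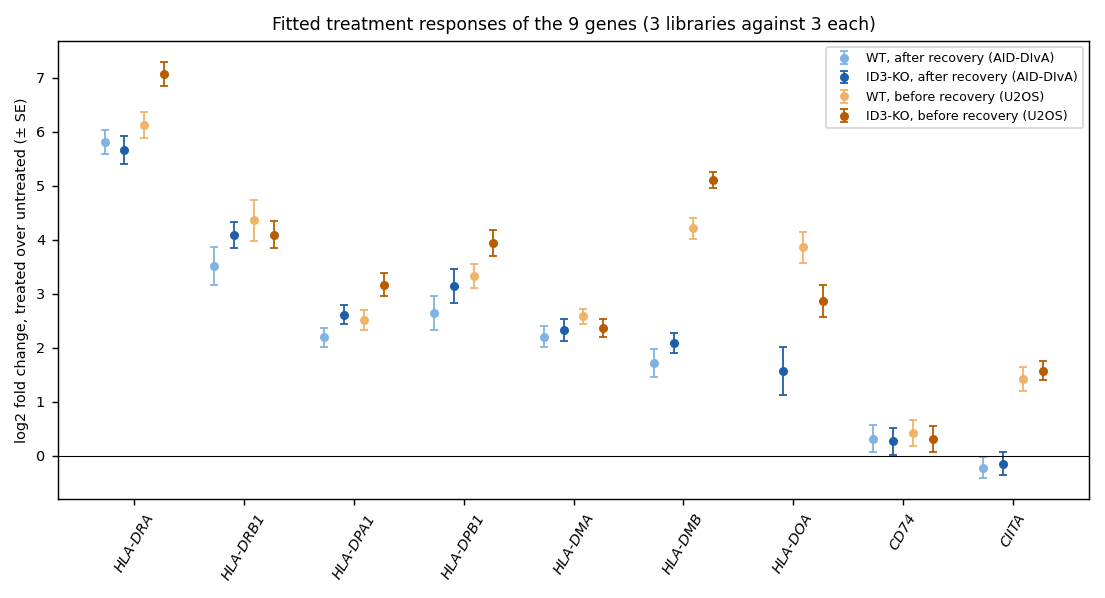
Log2 fold change of treated against untreated cells for each gene in WT and ID3-KO cells after recovery (AID-DIvA) and before recovery (U2OS), with bars of 1 SE. HLA-DRA is highest, between 5.66 and 7.07, and CD74 lies between 0.26 and 0.41 in all 4 responses.

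The next comparison asked whether loss of ID3 altered class II transcript levels. In untreated cells edgeR called 0 of the 5 members tested in AID-DIvA cells and 0 of the 6 tested in U2OS cells, as did DESeq2, while 0 and 2 had an unadjusted p below 0.05 in edgeR. HLA-DRA, HLA-DRB1 and HLA-DOA were too low to test in both and HLA-DPB1 in the former. Untreated HLA-DOA had means of 0.125 CPM in ID3-KO and 0.048 in WT AID-DIvA cells, and 0.143 and 0.076 in U2OS cells. For HLA-DRB1 the same means were 0.098 and 0.069, and 0.128 and 0.087 CPM. For HLA-DRA they were 0.074 and 0.071, and 0.053 and 0.136 CPM. HLA-DPB1 had 0.157 and 0.120 CPM in AID-DIvA cells. These untested levels rest on few counts. The backgrounds were 2.27% higher and 2.3% lower of 20441 genes in AID-DIvA and 1.42% and 2.84% of 20621 in U2OS cells. Among the members tested, the largest differences were those of HLA-DMB (log2 fold change -0.99, SE 0.347, adjusted p = 0.10) and HLA-DPA1 (-0.90, SE 0.307, adjusted p = 0.095) in untreated U2OS cells, by edgeR's quasi-likelihood test. Without WT replicate 1, the library that stood apart, HLA-DMB was called lower in untreated ID3-KO U2OS cells (-1.11, adjusted p = 0.013).

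After treatment and recovery, HLA-DRB1 was higher in ID3-KO than in WT AID-DIvA cells, at 1.71 ± 0.246 against 0.828 ± 0.200 CPM (SD, n = 3 each; log2 fold change 1.03, SE 0.204, adjusted p = 0.0042, edgeR), where 2.5% of the 20100 genes tested were called higher and 2.26% lower. It was the only member called, and it lies close to the fold threshold. Leaving out 1 of the 6 libraries moved the number of members called between 0 and 2: none was called without WT replicate 1, and without ID3-KO replicate 1 HLA-DRB1 (0.96) fell under the threshold while HLA-DPB1 (1.01, adjusted p = 0.0021) and HLA-DOA (1.10, adjusted p = 0.047) passed it. With all libraries HLA-DPB1 had an adjusted p of 0.015 at a log2 fold change of 0.87 (SE 0.218), under the fold threshold. The partner chains did not show this: HLA-DRA differed by -0.05 (SE 0.111, adjusted p = 0.80) and HLA-DPA1 by 0.03 (SE 0.136, adjusted p = 0.89).

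In treated U2OS cells the differences ran the other way and concerned other chains. HLA-DRA was at 7.45 ± 0.669 CPM in ID3-KO and 9.95 ± 0.380 CPM in WT cells (log2 fold change -0.41, SE 0.0805, adjusted p = 1.5e-04), and HLA-DMA at 3.16 ± 0.434 against 5.0 ± 0.423 CPM (-0.66, SE 0.110, adjusted p = 1.9e-05; edgeR, SD, n = 3). The libraries of the 2 genotypes did not overlap for either gene, but both differences were under the fold threshold, so no member was called, where 1.31% of 21800 genes were called higher and 2.18% lower. DESeq2 also called 0. The other 7 members had adjusted p of 0.13 or more in edgeR. HLA-DRB1, called in recovered AID-DIvA cells, overlapped here, at 1.78 to 2.08 CPM in WT and 1.98 to 2.25 CPM in ID3-KO cells.

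Whether the response to mocetinostat depended on ID3 was tested by the interaction of genotype and treatment, called at an adjusted p below 0.05 (edgeR). No member passed by edgeR or DESeq2, and at an unadjusted p below 0.05 0 members passed after recovery and 2 before it. After recovery, where 0.762% of 21265 genes responded more and 0.451% less in ID3-KO cells, the adjusted p of the members lay between 0.56 and 0.98. Before recovery, where 1.1% and 1.06% of 22647 genes were called, the largest positive terms were those of HLA-DRA (0.95, adjusted p = 0.51), HLA-DMB (0.89, SE 0.285, adjusted p = 0.15) and HLA-DPA1 (0.66, adjusted p = 0.39), and the largest negative one that of HLA-DOA (-0.99, adjusted p = 0.35). Without WT U2OS untreated replicate 1 the term of HLA-DMB passed (1.01, adjusted p = 0.025). Interaction terms of HLA-DRA depend on a few counts in untreated cells, and the test cannot resolve them finely. HLA-DRA, HLA-DRB1 and HLA-DOA were too low to test between untreated genotypes. They entered the interaction fits through their treated libraries, so their terms are a description.

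The treatment responses after and before recovery were compared by their difference, the response of AID-DIvA cells with recovery minus that of U2OS cells without it. Among all genes such differences were common: 20.5% of 22238 genes were called higher and 21.7% lower in WT cells, and 24.8% and 27.7% of 21947 in ID3-KO cells, at an adjusted p below 0.05. On either-strand counts HLA-DMB had the largest difference of the members, -2.50 (SE 0.366, adjusted p = 9.9e-05) in WT and -3.02 (SE 0.284, adjusted p = 5.8e-08) in ID3-KO cells. CIITA differed by -1.65 (SE 0.279, adjusted p = 3.2e-04, edgeR) in WT and -1.73 (SE 0.274, adjusted p = 3.1e-05) in ID3-KO cells on either-strand counts. On its own strand the difference of CIITA was -3.47 (SE 0.941, adjusted p = 0.0087) in WT and -2.54 (SE 1.65, adjusted p = 0.20) in ID3-KO cells, so that the call in ID3-KO cells rests on the counts that include the opposite strand. The difference of HLA-DOA was -1.87 (SE 0.601, adjusted p = 0.032, edgeR) in WT and -1.30 (SE 0.560, adjusted p = 0.059) in ID3-KO cells. HLA-DOA in WT cells and own-strand CIITA in both genotypes were too low to test for the response after recovery. They entered these fits through the treated U2OS libraries, where they are high, so their differences are a description. The WT call of HLA-DOA was lost in 5 of 12 fits that left out 1 library, and HLA-DOA passed in ID3-KO cells without treated AID-DIvA replicate 3 (adjusted p = 0.019), untreated AID-DIvA replicate 2 (adjusted p = 0.025) or treated U2OS replicate 2 (adjusted p = 0.039).

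The other 6 members did not pass in either genotype. HLA-DRA differed by -0.32 (SE 0.516, adjusted p = 0.68, edgeR) in WT and -1.42 (SE 0.674, adjusted p = 0.087) in ID3-KO cells. In ID3-KO cells it passed without AID-DIvA untreated replicate 1 (-1.84, adjusted p = 0.022) or without U2OS untreated replicate 3 (-2.34, adjusted p = 0.022). It rests there on 1 to 8 counts per untreated AID-DIvA library and 1 to 6 per untreated U2OS library. HLA-DRA, HLA-DRB1 and HLA-DOA were too low to test between untreated genotypes. They entered the stage fits through their treated libraries, so their differences are a description. HLA-DMA differed by -0.38 (adjusted p = 0.25) and -0.04 (adjusted p = 0.93), HLA-DPA1 by -0.32 (adjusted p = 0.34) and -0.57 (adjusted p = 0.16), HLA-DPB1 by -0.70 (adjusted p = 0.22) and -0.81 (adjusted p = 0.19), and HLA-DRB1 by -0.84 (adjusted p = 0.33) and -0.01 (adjusted p = 1.0). In all, 3 of 9 members, HLA-DOA included, were called lower in WT and 2 of 9 in ID3-KO cells, none higher. These shares are to be read against the 21.7% and 27.7% of all genes. The responses before and after recovery come from different cultures with their own untreated cells, and stage and cell label cannot be told apart.

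**Figure D4:**
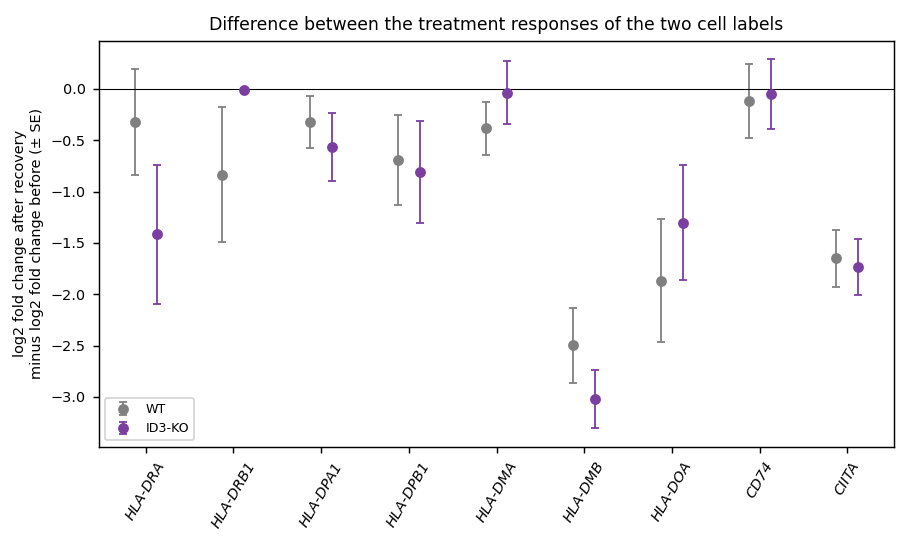
Difference of the treatment response after recovery (AID-DIvA) minus before recovery (U2OS) for each member in WT and ID3-KO cells, in log2 units with bars of 1 SE. HLA-DMB lies at -2.50 and -3.02, CIITA at -1.65 and -1.73 and HLA-DMA at -0.38 and -0.04.

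The class II genes outside the members were the HLA-DQ genes, HLA-DOB and HLA-DRB5, 6 in all. This list, too, was drawn up with the class II response known, and low genes entered the fits through their treated libraries, so the responses are a description. HLA-DQB1, a beta chain, was measured at 1.72 to 5.34 CPM without treatment and 4.72 to 11.7 CPM with it. Its log2 fold changes were 1.61 (SE 0.118) in WT and 1.59 in ID3-KO cells after recovery and 1.47 and 1.94 before it. HLA-DQA1, its alpha chain, was close to undetected without treatment and reached at most 1.06 CPM with it, with log2 fold changes of 3.19 (SE 0.467) and 4.09 (SE 0.533) after recovery and 3.86 and 4.46 before it. In ID3-KO AID-DIvA cells its ratio of 19.2 rested on 3 untreated counts (95% counting interval 6.17 to 96.4). HLA-DQB2 had log2 fold changes of 1.36 and 1.30 after recovery and 2.69 and 2.39 before it. HLA-DOB, the partner of HLA-DOA, was too low to test in WT cells after recovery and had log2 fold changes of 1.20 in ID3-KO cells after it and of 1.87 and 2.08 in WT and ID3-KO cells before it. HLA-DQA2 (at most 18 counts) and HLA-DRB5 (at most 16 counts) were not tested in any response. The HLA-DQ paralogs share near-identical stretches, so reads may have been divided among them.

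None of these genes passed the fold threshold between genotypes. In treated U2OS cells HLA-DQA1 (-0.71, adjusted p = 0.013), HLA-DQB1 (-0.38, adjusted p = 8.6e-05) and HLA-DOB (-0.62, adjusted p = 0.021) were lower in ID3-KO than in WT cells at the adjusted p alone, the direction of HLA-DRA and HLA-DMA there. HLA-DQA1 was also lower in recovered ID3-KO AID-DIvA cells at the adjusted p alone (-0.82, adjusted p = 0.040), opposite to HLA-DRB1. Between stages, HLA-DQB2 was called lower after recovery in WT cells (-1.34, SE 0.400, adjusted p = 0.016).

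The DNA-binding partners of CIITA, the RFX subunits RFX5, RFXANK and RFXAP, the NF-Y subunits NFYA, NFYB and NFYC, and CREB1, were all tested, and none was called in any of the 4 responses. Their log2 fold changes lay between -0.95 and 0.27. At the adjusted p alone 4, 2, 3 and 4 of the 7 were lower in WT and ID3-KO cells after recovery and WT and ID3-KO cells before it, and 0, 1, 0 and 0 higher. The lowest were RFXANK, with -0.95 (SE 0.152, adjusted p = 1.5e-03) in WT and -0.75 (SE 0.0678, adjusted p = 1.1e-09) in ID3-KO cells before recovery, and NFYC, with -0.82 and -0.73. Between stages RFXANK differed by 0.97 (adjusted p = 5.0e-04) in WT and 1.01 (adjusted p = 2.0e-06) in ID3-KO cells and NFYC by 0.51 (adjusted p = 7.4e-04) and 0.35 (adjusted p = 3.3e-03), the opposite direction to HLA-DMB and CIITA (all by edgeR).

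Of 14 inducers and repressors of CIITA, 11 were tested after recovery and 12 before it. After recovery 0 were called higher and 2 lower in WT cells and none in ID3-KO cells, and before recovery 1 was called higher and 1 lower in each genotype. Of all genes 4.86%, 4.9%, 13.6% and 14.6% were called higher in the 4 responses and 2.52%, 2.56%, 5.06% and 5.77% lower. SOCS1, an inhibitor of interferon signalling, fell in WT cells by 1.46 (SE 0.169, adjusted p = 1.4e-05) after recovery, from 4.44–5.28 to 1.19–2.20 CPM, and by 1.40 (SE 0.187, adjusted p = 5.9e-04) before it, from 5.97–9.06 to 2.53–3.05 CPM. In ID3-KO cells it did not pass (-0.33, adjusted p = 0.064, and -0.07, adjusted p = 0.56), and the interaction was called in both sets of cells, 1.13 (SE 0.236, adjusted p = 0.025) and 1.33 (SE 0.214, adjusted p = 0.0041). SOCS1 was also lower in untreated ID3-KO than in WT U2OS cells (-1.02, adjusted p = 7.3e-03). PRDM1, a repressor of CIITA transcription, fell by 1.30 (SE 0.102, adjusted p = 3.1e-07, edgeR) in WT cells after recovery and by 1.06 (SE 0.106, adjusted p = 6.7e-09) in ID3-KO cells before it. In the remaining responses PRDM1 was not called, and its interaction was not called in either set of cells, so a difference between genotypes is not shown. IRF8, an interferon regulatory factor of myeloid and B cells, rose from 10.6–12.5 to 33.4–46.0 CPM in U2OS cells, by 1.66 (SE 0.0752, adjusted p = 3.2e-06) in WT and 1.83 (SE 0.0632, adjusted p = 4.8e-17) in ID3-KO cells. After recovery its log2 fold changes were 0.18 and 0.34, and the difference between stages was -1.48 (adjusted p = 1.3e-07) and -1.5 (adjusted p = 6.0e-10).

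Of 9 genes for class II peptide loading and turnover, 0 of 8 tested were called in WT and 1 of 8 in ID3-KO cells after recovery, and 1 and 3 of 9 before it, all higher. The shares of all genes called higher were 4.86%, 4.9%, 13.6% and 14.6%. CTSS, the protease that trims the invariant chain, rose in ID3-KO cells by 1.81 (SE 0.202, adjusted p = 9.9e-05) after recovery and by 1.05 (SE 0.330, adjusted p = 7.1e-03) before it. In WT cells its log2 fold change was 0.99 (SE 0.249, adjusted p = 0.0051) after recovery, just under the fold threshold, and 0.0089 before it, and its interaction term did not pass (0.83, adjusted p = 0.33, and 1.05, adjusted p = 0.29). LGMN, an endosomal endopeptidase, rose by 1.10 (SE 0.0441, adjusted p = 6.1e-16) in ID3-KO cells before recovery, with an interaction of 0.39 (SE 0.0840, adjusted p = 0.025).

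**Figure D5:**
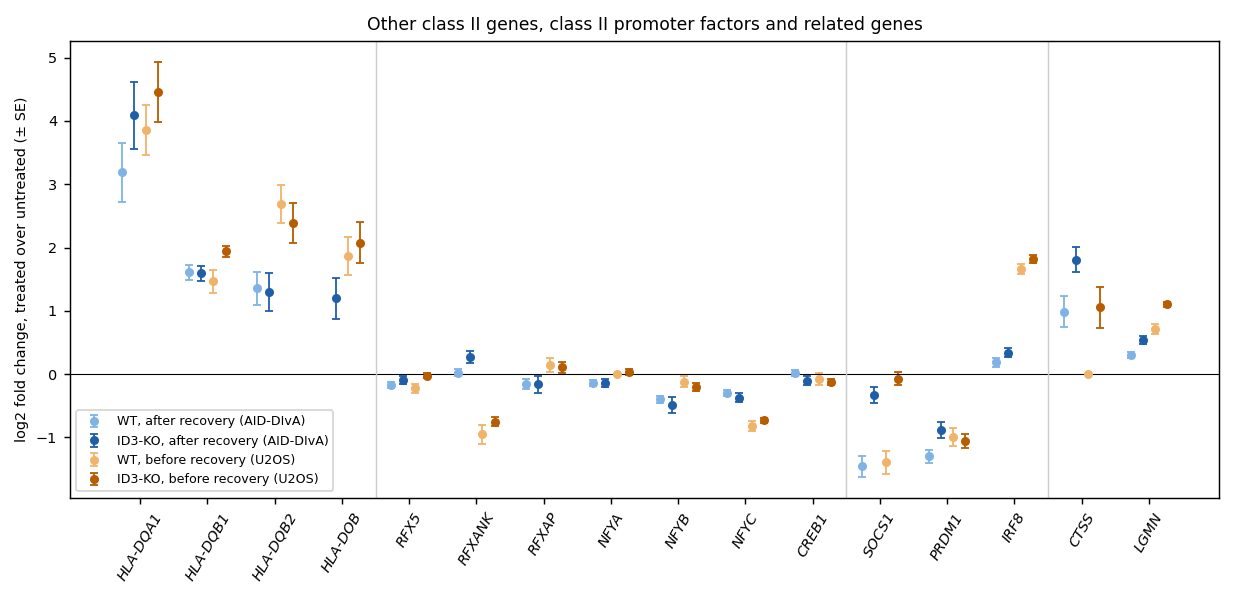
Log2 fold change with treatment in the 4 responses for genes around the members, with bars of 1 SE, grouped by vertical lines into other class II genes, promoter factors, CIITA inducers and repressors, and loading and turnover genes. The other class II genes lie between 1.20 and 4.46, the promoter factors between -0.95 and 0.27, and IRF8 stands at 1.66 and 1.83 before recovery.

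Because class II genes mark leukocytes, markers of blood cells were examined beside them. The summed level of 11 leukocyte markers was 8.45 to 15.1 CPM in untreated and 29.5 to 44.5 CPM in treated libraries, moving in the same direction as the class II genes. CSF1R, ITGAM and ITGAX, genes of myeloid cells, were called higher in all 4 responses, and were 3 of the 4 markers tested in each genotype after recovery. Before it 4 of 8 tested were called higher in WT and 4 of 9 in ID3-KO cells. Of all genes 4.86% and 4.9% were called higher after recovery and 13.6% and 14.6% before it. ITGAX alone accounted for 6.38 to 36.5 CPM. Other markers were low: PTPRC, the pan-leukocyte CD45 gene, was at most 0.411 CPM and was called lower in WT cells after recovery (-1.26), MS4A1 was at most 0.277 CPM and CD14 at most 0.487 CPM, CD3E had at most 3 and LYZ at most 2 counts, and CD3E and LYZ were each at 0 in 17 of 24 libraries. As in any bulk sample, more cells with a transcript and more transcript per cell cannot be told apart.

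Over the 8 group means, on the scale of log2(CPM + 0.1), the 7 class II members ran closely together, with Pearson's r between 0.862 (HLA-DRA and HLA-DOA) and 0.990 (HLA-DPA1 and HLA-DMA). CIITA on either strand had r between 0.582 and 0.880 with these 7 genes, and on its own strand between 0.865 and 0.990, highest with HLA-DMB. CD74 had r between 0.551 and 0.766 with them on either strand. These values are a description of 8 points that share their untreated groups and the split between treated and untreated. Among 16987 genes the 5 most like CIITA were CCDC177, PELI2, FCHO1, BSX and IQCD (r 0.9968 to 0.9977), and the 5 most like HLA-DRA were RP11-305P22.9, CYP1A1, KRT20, GCSAM and STMN2 (r 0.9913 to 0.9954).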

How the data were processed

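Libraries of stranded total RNA were sequenced in pairs by the authors, with STAR as the aligner, hg19/GRCh37 as the genome and featureCounts for the assignment to genes. Tool versions are not given in the sources used here. The deposited values are raw counts per gene and library, without normalization or pooling, from either strand and by strand. Either-strand counts are the main unit, and own-strand counts are an alternative. Gene identifiers carry other version numbers than the annotation named in the methods.

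All tests ran in edgeR 4.0.16 under R 4.3.3, with TMM factors and the filterByExpr filter, by the quasi-likelihood test with robust dispersions, and p-values were adjusted by Benjamini-Hochberg over every gene tested. Each response and genotype contrast used its own 6 libraries, and each interaction or stage difference 12. The threshold was an adjusted p of 0.05, joined for responses and genotype contrasts by an absolute log2 fold change of 1. Standard errors were derived from the log2 fold change and the F statistic, and are left out for changes under 0.02. The steps were tested on simulated counts. Alternatives were DESeq2 1.42.0, other size factors and filters, no fold threshold, own-strand counts, 4 or 8 groups in 1 fit, a replicate block and each library left out in turn.

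The members, gene lists and tests were chosen with earlier results of these data known. Named were all members, the other class II genes and promoter factors, up to 6 genes of each other list that were called and reached a mean of 1 CPM in 1 group, the genes of the class II region, and the 5 genes most like CIITA and HLA-DRA. Promoter windows came from RefSeq (GRCh38.p14) and were not joined to the hg19 gene positions. Depth was 37878751 to 76906266 counts per library, and members under 1 CPM rest on few counts. The values of 1 leukocyte marker are not reported here.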

Additional observations from a re-analysis of the deposited data

Results flagged for a closer look

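Among the members, the other class II genes and the promoter factors, the responses that differed between the stages by a test of the difference itself, which cannot be told apart from the cell label, were those of HLA-DMB (-2.50 in WT and -3.02 in ID3-KO cells), CIITA (-1.65 and -1.73), HLA-DOA (-1.87 in WT cells, adjusted p = 0.032) and HLA-DQB2 (-1.34 in WT cells), each lower after recovery. RFXANK (0.97 and 1.01) and NFYC (0.51 and 0.35) differed in the opposite direction. HLA-DOA was too low to test in WT cells after recovery and entered through its treated U2OS libraries, so its difference is a description. The CIITA values are from either-strand counts. On its own strand CIITA was not called in ID3-KO cells (-2.54, adjusted p = 0.20, edgeR). Own-strand CIITA entered in both genotypes through its treated U2OS libraries and is likewise a description. NFYA differed by -0.19 in ID3-KO cells (adjusted p = 0.048, edgeR), a call lost on own-strand counts (-0.15, adjusted p = 0.094).

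Such differences were common in the other lists too, beside 20.5% of all genes higher and 21.7% lower in WT cells and 24.8% and 27.7% in ID3-KO cells. Of 12 CIITA inducers and repressors tested, 2 were higher and 5 lower in WT and 3 and 4 in ID3-KO cells, with IRF8 the lowest (-1.48 and -1.5). Of 9 loading and turnover genes 2 and 3, and 3 and 4, were called, LGMN among the lower ones (-0.42 and -0.57), and of 12 class I genes 4 and 3 in each genotype. Of 5 costimulation genes 0 and 2, and 2 and 1, were called.

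Responses that differed between genotypes by the interaction, over all lists examined, were those of SOCS1 (1.13 after and 1.33 before recovery), HLA-F, a class I gene (0.68 after recovery, adjusted p = 0.014), LGMN (0.39 before recovery), the bone-lineage marker RUNX2 (0.53 after and 0.56 before recovery) and the myeloid markers ITGAM (1.2 after recovery) and ITGAX (-0.48 before recovery). On own-strand counts RUNX2 did not pass before recovery. None of these genes was a member.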

How the results depend on the processing

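No called result of the members changed direction under any alternative run. In recovered AID-DIvA cells 1 member (HLA-DRB1) was called between genotypes, 2 without the fold threshold and 0 to 2 when 1 library was left out; in treated U2OS cells 0 were called, and 2 (HLA-DRA and HLA-DMA) without the fold threshold. Leaving out 1 library gave 0 to 1 calls between untreated U2OS genotypes and 0 to 1 for the interaction before recovery, both HLA-DMB without WT replicate 1. With own-strand counts 1 member rather than 2 was called between stages in ID3-KO cells, since CIITA (-2.54, adjusted p = 0.20) did not pass. HLA-DOA lost its stage call in WT cells without a filter (-1.88, adjusted p = 0.080) and in 5 of 12 leave-one-out fits (adjusted p 0.052 to 0.13), and passed in ID3-KO cells with 8 groups in 1 fit (adjusted p = 0.038) and in 3 leave-one-out fits (adjusted p 0.019 to 0.039). Replicate numbers did not pair the samples (correlations -0.296 to 0.195); with a replicate block the number of members called stayed the same in 12 of 12 comparisons, and the interaction after recovery went from 162 genes higher and 96 lower to 96 and 61. Over all genes, that interaction gave 303 and 166 with DESeq2, 422 and 191 without a filter, and 76–192 and 46–128 with 1 library left out; the interaction before recovery (249 and 239) gave 458 and 462 with DESeq2, 434 higher without a filter, 407 and 387 with 8 groups in 1 fit, and 134–1034 and 123–1057 with 1 library left out. Calls between untreated U2OS genotypes ranged over 193–398 and 370–782, and without the fold threshold the responses gave 4851 and 4661, 4114 and 4042, 5658 and 4995, and 7590 and 7204 genes, and the genotype contrasts 3793 and 3709, 1352 and 1780, 2537 and 2222, and 4133 and 4134. With a pseudocount of 1 CPM, 3 of the 5 genes most like CIITA and 2 of the 5 most like HLA-DRA stayed among the first 5, and CPM by total count alone moved 5 of 72 group levels by more than the spread between replicates. The cause of these changes was not tested. HLA-DRA, HLA-DRB1 and HLA-DOA were too low for a test between untreated genotypes.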

Other observations

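MHC class I and antigen processing genes, 12 in the list, included both called and uncalled genes. PSMB9, an immunoproteasome subunit encoded between the class II genes, rose in all 4 responses, by 1.36 (SE 0.0729, adjusted p = 8.4e-09) and 1.69 (adjusted p = 2.2e-06) in WT and ID3-KO cells after recovery and by 1.53 (adjusted p = 1.5e-04) and 1.74 (adjusted p = 3.0e-16) before it. HLA-F, a non-classical class I gene, rose by 1.63 in ID3-KO cells after recovery and by 1.78 in WT and 1.98 in ID3-KO cells before it. In all, 1, 3, 2 and 3 of 12 were called higher in these responses and 0 lower, with median log2 fold changes of 0.54, 0.59, 0.52 and 0.42. Of all genes 4.86%, 4.9%, 13.6% and 14.6% were called higher. On own-strand counts 2, 2, 2 and 3 of the 12 were called higher. Of 5 costimulation genes tested, CD274, the gene of the checkpoint ligand PD-L1, rose by 2.58, 2.89, 2.54 and 2.78, and PDCD1LG2, the gene of PD-L2, by 2.27 in WT and 1.65 in ID3-KO cells after recovery. ICAM1, an adhesion molecule, rose by 1.70 in ID3-KO cells after recovery and by 1.98 and 1.81 before it.

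Genes of the class II region were also counted. Of the 29 other genes annotated between the start of HLA-DRA and the end of HLA-DPB1, 10, 11, 11 and 12 were tested in the 4 responses and 4, 5, 5 and 7 were called higher, none lower. Of all genes 4.86%, 4.9%, 13.6% and 14.6% were called higher. On own-strand counts 4, 5, 5 and 6 region genes were called higher. The HLA-DQ genes and HLA-DOB among those called were listed with the class II response known. Besides them and PSMB9, the genes called on either-strand counts were the pseudogenes HLA-DRB6 (2.70) and HLA-DRB9 (1.11) in ID3-KO cells before recovery. BRD2, which overlaps HLA-DMA, had log2 fold changes of -0.06 and -0.03 after recovery and -0.39 and -0.53 before it, and PSMB8, next to PSMB9, 0.53 and 0.71 after recovery and -0.49 and -0.56 before it.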
